A study of Mus musculus with 2 samples.

Results

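The 7 mouse globin genes *Hba-x*, *Hba-a1*, *Hba-a2*, *Hbb-y*, *Hbb-bh1*, *Hbb-bs* and *Hbb-bt*, together with the erythroid regulator *Klf1*, were examined for open chromatin in embryonic hearts. They were listed by name, with earlier results of these data known, and are 8 of the 21938 protein-coding genes of GENCODE M21 on chromosomes 1 to 19, X and Y of GRCm38/mm10. Peaks were read within 1 kb of each gene's outermost annotated start and over both globin loci with 100 kb added on each side. Of the 118027 peaks of replicate 1 the alpha interval contained 61 and the beta interval 30, and of the 114783 peaks of replicate 2 they contained 57 and 35.

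ATAC-seq, which maps accessible DNA by letting a transposase cut it, was performed on wildtype (WT) FVB mouse hearts at E11.5, a stage of 49 to 51 somites. Both replicates belonged to 1 group, each made from 2 hearts and about 50000 nuclei, sequenced as single 50 bp reads. No treatment, mutant or sorted cell type was part of the series, so no test between groups was possible and all values are given per replicate. Whole hearts contain myocardium, endocardium, epicardium and blood, and a peak from fewer cells cannot be told apart from a peak that is weaker in each cell.

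Hemoglobin is built from alpha-like and beta-like chains, and its genes lie in separate clusters in which embryonic genes precede adult ones. In embryonic red cells, which still carry a nucleus while they circulate, *Hba-x* (zeta) pairs with *Hbb-y* (epsilon-y) and *Hbb-bh1* (beta-h1), while *Hba-a1* and *Hba-a2* encode the alpha chains used in embryo and adult and *Hbb-bs* and *Hbb-bt* the adult beta chains. Transcription of both clusters depends on distant upstream enhancers, which for the beta genes form the locus control region and for the alpha genes lie mainly in introns of the neighbouring gene *Nprl3*. *Klf1* encodes the zinc finger factor that binds CACCC sequences of erythroid promoters and enhancers.

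Each peak carries a fold enrichment, the authors' ratio of read pileup at the summit to an average over the genome, after 1 was added to each. Pairs of values below are fold enrichments, replicate 1 first and replicate 2 second, unless another quantity is named. Its median was 5.70 over all peaks of replicate 1 and 5.03 over those of replicate 2. Read totals are not part of the lists. The background behind the ratio, recovered from its steps, was 2.68 reads in replicate 1 and 2.98 in replicate 2, so that replicate 2 was 1.11 times deeper if reads were extended equally. A shared region is the part of a replicate 1 peak that a replicate 2 peak covers, with at least 1 bp of overlap, and 98924 such regions were found in the genome. The FVB reads were mapped to the C57BL/6J reference, and strain differences at the globin loci were not examined here.

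The DNA at the leading sites is given first, because the results below turn on where peaks lie relative to it. Starts and upstream sequence of the members came from the RefSeq promoter table (GRCm38.p6), which held 7 of the 8 members. *Hbb-bh1* was not matched. Only bases upstream of both the RefSeq and the GENCODE start are printed, 5′ to 3′ on the strand of the gene. Capitals mark matches on either strand to a GATA motif (AGATAA or TGATAA), an NF-E2 motif (TGACTCA), a KLF motif (CCNCNCCC) or an E-box (CAGATG), and 1 base may belong to more than 1 motif. The promoters shown are those of the embryonic beta-like gene with the highest fold enrichment, of an adult beta gene, of *Hba-a2*, 1 of the 2 alpha genes whose start lay outside every peak, and of the regulator.
*Hbb-y*, chr7:103853217-103853326, minus strand: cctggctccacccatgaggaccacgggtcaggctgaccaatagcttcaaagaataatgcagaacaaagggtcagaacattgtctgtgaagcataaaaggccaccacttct
*Hbb-bt*, chr7:103813997-103814106, minus strand: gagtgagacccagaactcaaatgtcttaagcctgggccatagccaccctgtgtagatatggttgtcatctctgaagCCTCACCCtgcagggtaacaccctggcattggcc
*Hba-a2*, chr11:32296379-32296488, plus strand: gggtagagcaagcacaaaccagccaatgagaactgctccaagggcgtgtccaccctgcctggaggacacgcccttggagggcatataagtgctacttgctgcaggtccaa
*Klf1*, chr8:84901818-84901927, plus strand: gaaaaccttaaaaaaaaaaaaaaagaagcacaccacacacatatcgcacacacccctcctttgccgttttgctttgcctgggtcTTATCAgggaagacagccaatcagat

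The second set shows the reference, plus strand, from 50 bp before to 50 bp after the replicate 1 summit of the strongest regions 1 to 40 kb upstream of each cluster, for stretches without an annotated exon.
*Nprl3* intron, 25.3 kb upstream of *Hba-x*, chr11:32251056-32251156: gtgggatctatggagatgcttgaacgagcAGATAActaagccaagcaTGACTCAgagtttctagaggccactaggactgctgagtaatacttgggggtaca
*Nprl3* intron, 30.6 kb upstream of *Hba-x*, chr11:32245749-32245849: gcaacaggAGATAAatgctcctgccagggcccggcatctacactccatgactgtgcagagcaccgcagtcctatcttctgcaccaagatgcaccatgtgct
Intergenic, 7.88 kb upstream of *Hbb-y*, chr7:103861044-103861144: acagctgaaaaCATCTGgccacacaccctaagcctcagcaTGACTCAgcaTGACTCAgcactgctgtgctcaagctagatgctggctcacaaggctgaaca
Intergenic, 12.8 kb upstream of *Hbb-y*, chr7:103865935-103866035: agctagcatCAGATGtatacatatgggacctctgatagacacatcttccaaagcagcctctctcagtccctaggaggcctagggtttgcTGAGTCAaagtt
Intergenic, 17.6 kb upstream of *Hbb-y*, chr7:103870780-103870880: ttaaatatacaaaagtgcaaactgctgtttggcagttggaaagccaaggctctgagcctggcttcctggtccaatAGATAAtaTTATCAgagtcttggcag

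All 8 members had a peak within 1 kb of the start in replicate 1, where 64.8% of protein-coding genes had one, and in replicate 2, where 64.6% did. All 8 also had a shared region, against 63.5% of protein-coding genes, and kept one at a q-value of at most 1e-10 in both replicates, against 58.6%. The highest fold enrichment of the peaks touching the window, whose summits can lie outside it, spanned 11.4 to 29.9 over the members in replicate 1 and 10.8 to 35.2 in the other replicate. The median over the members of the mean of both replicates was 21.0, beside 12.3 over all protein-coding genes and 24.3 over the protein-coding genes with a shared region. The median of the members thus lay above that of all starts, where genes without a peak count as 0, and below that of the starts with a region, while single members lay on either side of both.

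**Figure D1:**
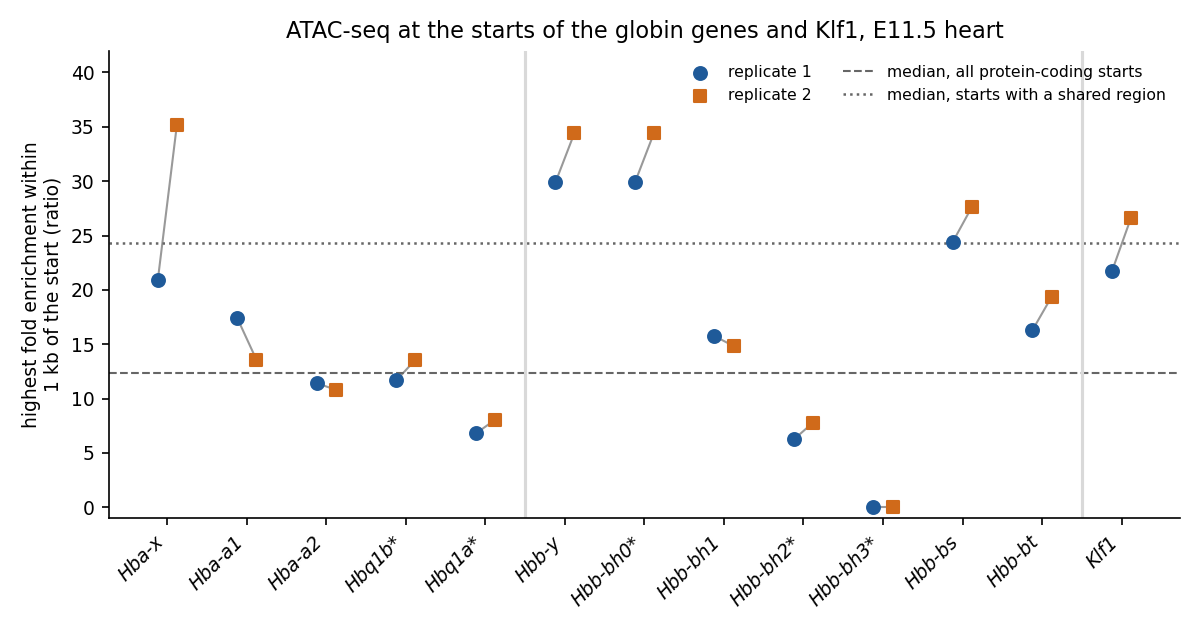
Highest fold enrichment (ratio) of the peaks within 1 kb of each start, with circles for replicate 1 and squares for replicate 2, and an asterisk on the other annotated globin genes. *Hbb-y* and *Hba-x* are highest by mean, *Hba-a2* and the theta genes lie at 13.6 or below, *Hbb-bh3* has no peak, and the value at *Hbb-bh0* is that of the peak of *Hbb-y*.

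Among the embryonic genes, *Hbb-y* had the highest level of all members by mean, with 29.9 and 34.4, in peaks of 3120 bp and 3030 bp that covered the whole gene (chr7:103851749-103853216). Its summits lay 25 bp and 78 bp downstream of the start. These peaks were longer than 99.5% of the peaks of replicate 1 and 99.3% of those of replicate 2. The open stretch at *Hbb-y* is therefore a broad domain over promoter and gene, not a narrow promoter site.

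*Hba-x* reached 20.9 and 35.2, in peaks of 3352 bp and 3505 bp that likewise covered the whole gene (chr11:32276400-32278116). Its summits lay 189 bp and 117 bp downstream of the GENCODE start and upstream of the RefSeq start, which lies 200 bp downstream of it. The replicates differed more here than at any other member, by a ratio of 1.68 of replicate 2 to replicate 1. Of the 9742 shared regions with a mean fold enrichment over 20 and summits within 200 bp of each other, 4 had a ratio at least this high, *Hba-x* included.

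*Hbb-bh1* was lower and nearly equal in both replicates, with 15.8 and 14.8. Its peaks of 1009 bp and 1054 bp had their summits 76 bp and 69 bp upstream of the start and covered 64.6% and 70.3% of the gene (chr7:103841637-103843164). *Hbb-bh1* thus had shorter peaks than *Hbb-y* and *Hba-x* and a lower level in both replicates.

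The adult beta genes had shorter peaks at the start than *Hbb-y*, *Hba-x* or *Hbb-bh1*. *Hbb-bs* (chr7:103826534-103828096) reached 24.4 and 27.7, in peaks of 553 bp and 602 bp. *Hbb-bt* (chr7:103812524-103813996) had 16.3 and 19.4, in peaks of 529 bp and 652 bp. In both genes and both replicates the summit lay 72 to 94 bp downstream of the outermost start. GENCODE places this start upstream of the RefSeq start, by 168 bp at *Hbb-bs* and 73 bp at *Hbb-bt*. The summits thus lay upstream of the RefSeq start at *Hbb-bs* and downstream of it at *Hbb-bt*. The peaks of *Hbb-bs* covered 30.5% and 34.2% of the gene and those of *Hbb-bt* 22.0% and 37.0%. Of the 50 bp sequences inside the genes only 32.8% at *Hbb-bs* and 28.6% at *Hbb-bt* occur once in the genome, and the part of this in peak length and cover was not tested.

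The alpha genes *Hba-a1* and *Hba-a2* differed from the other members, since their start base lay in no peak of either replicate, while the start of the other 6 did in both. At *Hba-a1* (chr11:32283511-32284465) a peak ended 32 bp upstream of the start in replicate 1 and 31 bp upstream in replicate 2, and these peaks reached 6.79 and 6.54. The next peak began in the 3′ part of the gene, at 32284182 and 32284176, and reached 17.4 and 13.6 with summits 1849 bp and 1667 bp downstream of the start. At *Hba-a2* (chr11:32296489-32297298) the only peak in the window began downstream of the whole gene, 952 bp and 915 bp from the start. It reached 11.4 and 10.8 at summits 1522 bp and 1684 bp from the start, outside the window. With 0.5 kb instead of 1 kb on each side, *Hba-a2* lost its region and the other 7 members kept theirs.

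Much of the sequence at these starts occurs more than once in the genome, and the authors discarded reads with a poor mapping score ahead of peak calling. Within 1 kb of the start, 30.9% of the 50 bp sequences of *Hba-a1* and 25.4% of those of *Hba-a2* occurred once in GRCm38, and inside the genes 5.52% and 6.57% did. Of the 50 bp sequences in the *Hba-a1* window, 69.1% were also present in the window of *Hba-a2*. The share of unique sequences in the window was 66.0% at *Hbb-bs*, 59.2% at *Hbb-bt* and 97.8% or more at the other 4 members. In the span of the alpha genes, 57.5% of 19226 positions with a unique 50 bp sequence lay in a shared region and 33.5% of 5248 positions with a repeated one. In the span of the beta genes these shares were 27.8% of 32716 and 3.70% of 7977 positions. How much open chromatin the lists miss at *Hba-a1* and *Hba-a2* was not tested.

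*Klf1* (chr8:84901928-84905291) had 2 peaks in replicate 1 and a single peak of 3998 bp in replicate 2. In replicate 1 the peak over the start reached 15.5 with its summit 57 bp upstream, and the second, with 21.7, had its summit in an exon of *Klf1* 1457 bp downstream. The replicate 2 peak had 26.6 at a summit 1381 bp downstream. The strongest signal was thus inside the gene in both replicates. Because the replicates divided this stretch differently, *Klf1* was the only member whose region was lost when at least 50% of both peaks had to overlap.

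Within 10 kb of the *Klf1* gene on either side, the start of *Gcdh*, a mitochondrial dehydrogenase gene, had a region with 34.0 and 29.4 and a replicate 1 summit 8.09 kb upstream of the *Klf1* start. The start of *Dnase2a*, which encodes a lysosomal nuclease, had one with 26.3 and 25.1 and a summit 6.74 kb downstream. A further 2 regions lay in *Dnase2a*, in an exon 11.4 kb downstream with 14.1 and 17.1 and in an intron of *Dnase2a* and *Mast1* 13.5 kb downstream with 5.43 and 6.03. *Klf1* was thus the lowest of these 3 gene starts in replicate 1 and between the other two in replicate 2.

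Ordered by the mean of both replicates, the members ranked *Hbb-y*, *Hba-x*, *Hbb-bs*, *Klf1*, *Hbb-bt*, *Hba-a1*, *Hbb-bh1* and *Hba-a2*. The replicate values of *Hbb-y*, *Hba-x*, *Hbb-bs* and *Klf1* overlapped between neighbours, as did those of *Hbb-bt*, *Hba-a1* and *Hbb-bh1*. Gaps without overlap fell between *Klf1* and *Hbb-bt* and between *Hbb-bh1* and *Hba-a2*. The ranked values of *Hba-a1*, *Hba-a2* and *Klf1* belong to summits more than 1 kb downstream of the start. The peak of *Hba-a1* that ended just upstream of its start reached 6.79 and 6.54, below the ranked values of all other members. No test was run on 2 values per gene.

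The other annotated globin genes were mostly lower. The theta genes *Hbq1b* and *Hbq1a* reached 11.7 and 6.79 in replicate 1, and in replicate 2 they reached 13.6 and 8.04, of which the value at *Hbq1b* belongs to the peak that begins in *Hba-a1*. *Hbb-bh2* had 6.25 and 7.79, in peaks of 1778 bp and 1918 bp. The pseudogene *Hbb-bh0* had a peak of its own with 5.98 and 5.03, and its window also touched the broad peak of *Hbb-y*. The pseudogene *Hbb-bh3* had no peak in either replicate although all 50 bp sequences of its window were unique.

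The alpha interval (chr11:32176400-32400873) held 56 shared regions, 24.9 per 100 kb beside 3.73 per 100 kb over the genome, which is 6.68 times as many. Shared regions covered 17.5% of its bases, against 2.12% of the genome. Within the 24474 bp from *Hba-x* to *Hbq1a* there were 17 peaks in replicate 1 and 13 in replicate 2, which made 18 shared regions where the replicates split the stretch differently, and these covered 52.4% of the sequence. Their mean fold enrichment ran from 4.78 to 28.1. The accessible sequence of the gene span was therefore spread over several peaks, with *Hba-x* highest. Peaks without a counterpart in the other replicate numbered 8 and 7 in the interval and reached at most 5.43 and 4.53.

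The segment from 1 to 40 kb upstream of *Hba-x* held 14 shared regions, all with their summit in *Nprl3*, which encodes a subunit of a complex that restrains mTORC1. By the replicate 1 summit, 10 were intronic and 4 exonic. The highest lay in an intron 25.3 kb upstream of *Hba-x*, with 35.0 and 38.2, above 97.6% of all shared regions by mean fold enrichment. The next, in an intron 30.6 kb upstream, had 29.1 and 32.7. A region with its summit in an exon 20.1 kb upstream had 20.4 and 25.6, and one at the start of *Nprl3*, 8.85 kb upstream, had 23.6 and 21.6. These 4 were the regions of the segment above a mean of 20, and they exceeded the level of *Hba-a1* and *Hba-a2* in both replicates.

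An intronic region 11.2 kb upstream of *Hba-x* followed with 13.9 and 14.8, and one 37.8 kb upstream with 9.78 and 13.1. The remaining 8 regions of the segment had means of 4.32 to 9.64. The fold enrichment along *Nprl3* was thus uneven, with 4 high regions among 14.

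**Figure D2:**
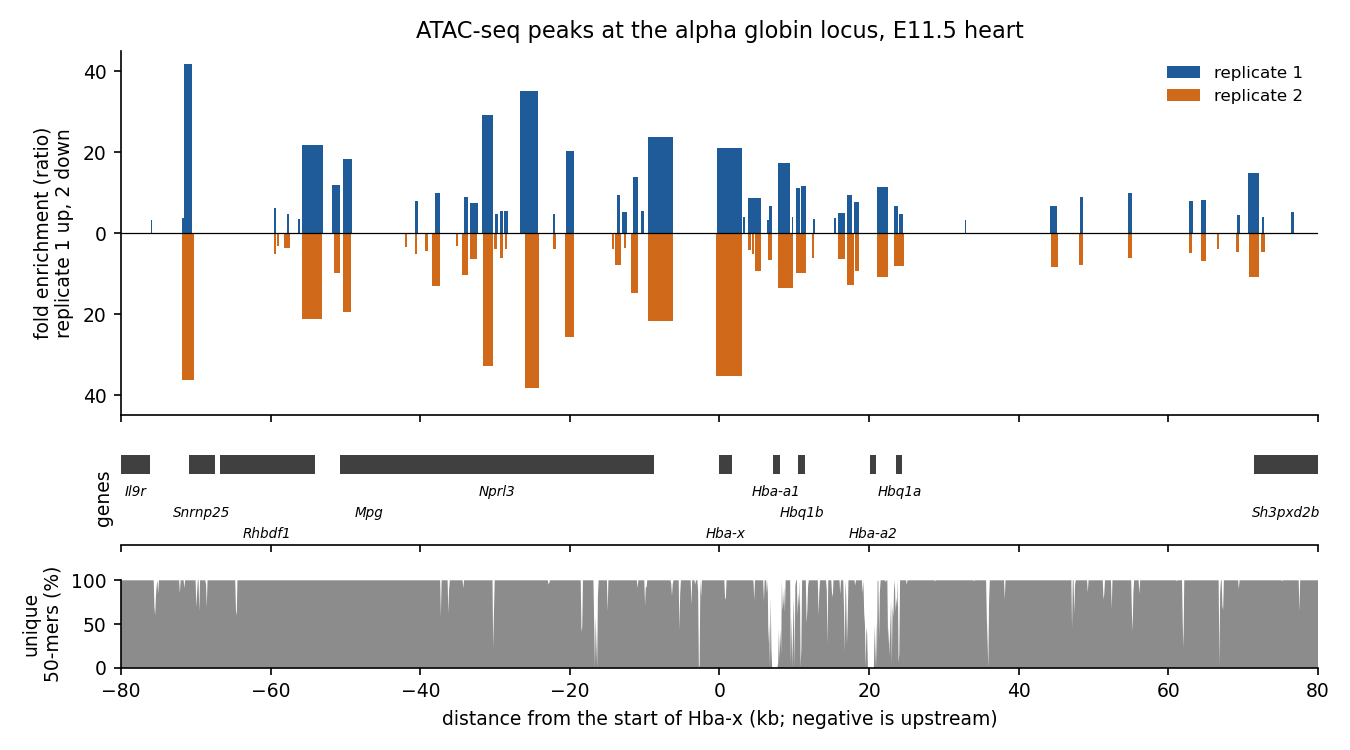
Peaks at the alpha globin locus against distance from the start of *Hba-x* (kb), with bar width for peak length and bar height for fold enrichment (replicate 1 up, replicate 2 down), genes as boxes (*Mpg* overlaps *Nprl3*) and the share of unique 50 bp sequences per 100 bp (percent). The bars at 25.3 kb and 30.6 kb upstream stand above those at *Hba-a1* and *Hba-a2*, whose gene boxes lie at dips in the share of unique sequence.

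By mean fold enrichment, and in replicate 1, the highest region of the alpha interval was none of these but the start of *Snrnp25*, a spliceosome gene 71.0 kb upstream of *Hba-x*, with 41.8 and 36.2. In replicate 2 the *Nprl3* intron region 25.3 kb upstream of *Hba-x* was higher. The starts of *Rhbdf1* (21.7 and 21.1), a rhomboid-like membrane protein gene, *Mpg* (18.2 and 19.4), a DNA glycosylase gene, and *Sh3pxd2b* (14.9 and 10.8), a podosome scaffold gene, also had shared regions. Of the protein-coding genes in the interval outside the globins, 5 of 6 had one, and *Il9r*, a cytokine receptor gene, had only a replicate 1 peak of 3.26. The density of the alpha interval therefore includes promoters of widely expressed genes.

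The beta interval (chr7:103712524-103953216) held 30 shared regions, 12.5 per 100 kb, which is 3.34 times the density of the genome, and they covered 9.56% of its bases. Within the 40693 bp from *Hbb-bt* to *Hbb-y* there were 12, covering 23.0%. Of the globin genes annotated as protein-coding in this span, 5 of 5 had a shared region at the start. None of the 13 olfactory receptor genes of the interval had one, and over the genome 11 of 1135 such genes did (0.969%). The largest fold enrichment at any of these 13 starts was 3.02, at *Olfr64* in replicate 2 alone. The protein-coding starts with shared regions in the beta interval were thus those of the globin genes.

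The segment from 1 to 40 kb upstream of *Hbb-y* held 8 shared regions, all intergenic and all within 24.1 kb of the start. A region 12.8 kb upstream was highest, with 28.0 and 32.2, followed by one 7.88 kb upstream with 28.0 and 28.4. The region 17.6 kb upstream had 21.7 and 25.9, and the one 6.14 kb upstream 21.5 and 21.4. The region 24.1 kb upstream had 16.3 and 20.9 and exceeded *Hbb-bh1* and *Hbb-bt* by mean fold enrichment. The other 3 regions were weak, at 6.52 and 7.54, 3.26 and 4.53, and 3.53 and 3.52.

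The positions of these summits were close between replicates, with a median distance of 8.5 bp over the 8 regions upstream of *Hbb-y* and of 49 bp over the 14 regions upstream of *Hba-x*. In the gene spans it was 38.5 bp for the beta cluster and 172 bp for the alpha cluster. The summits were thus placed least alike in the alpha gene span, where the replicates split the peaks differently.

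Outside the upstream segment, the beta interval held a further strong region 57.0 kb upstream of *Hbb-y*, among the olfactory receptor genes, with 28.8 and 31.7. By mean fold enrichment it ranked second in the interval after *Hbb-y* and before the region 12.8 kb upstream. Its summits were intergenic and lay 7 bp apart.

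**Figure D3:**
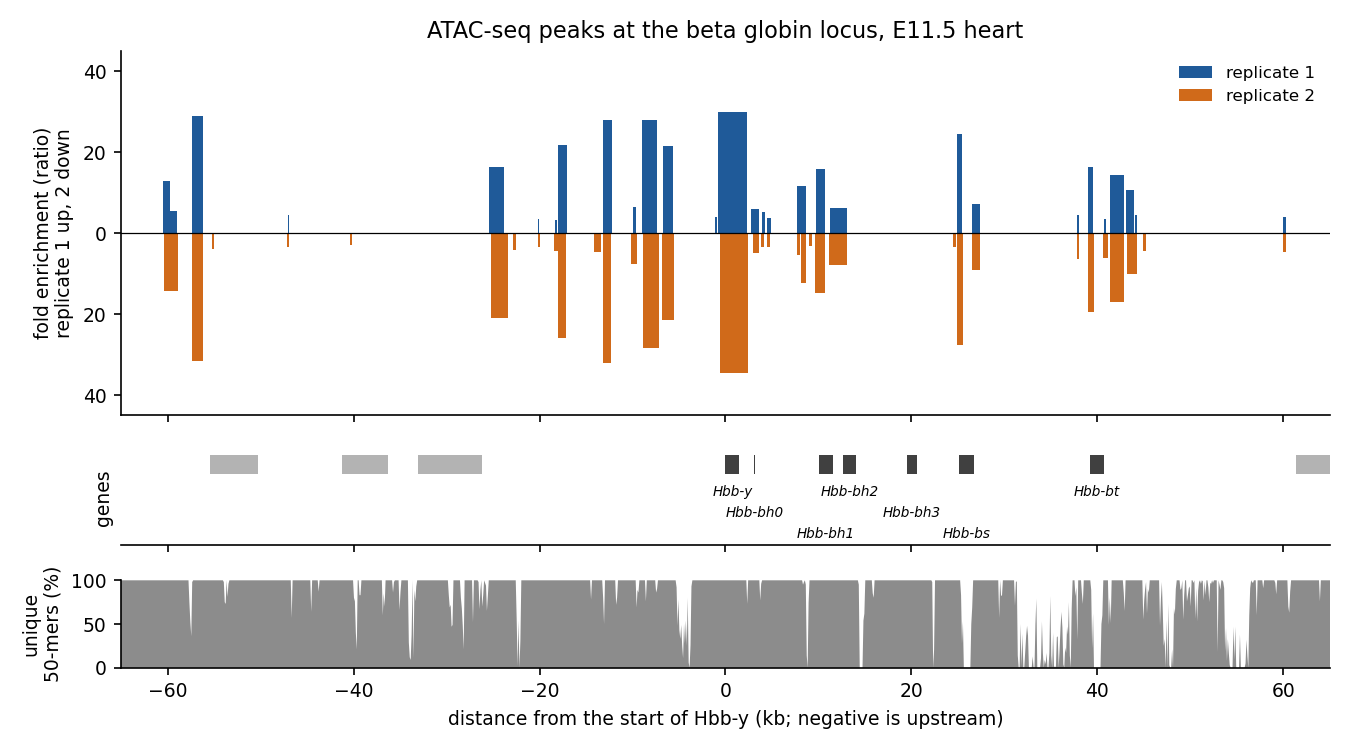
Peaks at the beta globin locus against distance from the start of *Hbb-y* (kb), drawn as for the alpha locus, with olfactory receptor genes as unlabelled light boxes. The 5 strong regions between 6.14 kb and 24.1 kb upstream have means below that of *Hbb-y*, with those at 7.88 kb and 12.8 kb above *Hbb-bs*, while most of the sequence between the genes has no peak.

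From 100 bp before to 100 bp after the replicate 1 summit, a GATA motif was present in 7 of the 14 regions upstream of *Hba-x* and in 4 of the 8 upstream of *Hbb-y*, and in 26.6% of all shared regions. It was also present in 7 of 18 regions of the alpha gene span, 2 of 12 of the beta gene span, 2 of 24 of the alpha flanks and 7 of 10 of the beta flanks, so that it was not particular to the upstream segments. Regions cut from the same replicate 1 peak can share its summit, so some windows in the gene spans were counted more than once. In the alpha gene span these included a window with a GATA motif. An NF-E2 motif was present in 2 of the 14 and 3 of the 8, and in 6.40% of all shared regions. A KLF motif was present in 2 of the 14 and 1 of the 8, and in 29.3% of all. An E-box was present in 3 of the 14 and 2 of the 8, and in 15.6% of all. In the sequences printed above, GATA and NF-E2 motifs stand together 25.3 kb upstream of *Hba-x*, and the region 7.88 kb upstream of *Hbb-y* carries a pair of NF-E2 motifs. These counts are small and describe letters of the reference, not binding.

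In the RefSeq promoters, which run from 250 bases before the start to 50 after it and so extend beyond the stretches printed, 6 of the 7 matched members held a GATA motif, and 18.6% of the 32851 promoters of the table did. A KLF motif was found in *Hba-x*, *Hbb-bs* and *Hbb-bt*, 3 of 7, beside 49.5% of all promoters. An NF-E2 motif was found in *Hbb-bs* and an E-box in *Klf1*, where 5.20% and 17.2% of all promoters held them.

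The other genes of the red cell programme were read at their starts in the same way. Of 12 erythroid regulators, 11 had a shared region, and of 19 matched erythroid effectors, which act in membrane, heme synthesis, iron uptake and blood group function, 16 did. Together this is 27 of 31 genes, or 87.1%, beside 63.5% of protein-coding genes. The median of the mean fold enrichment was 21.7 for the regulators and 24.1 for the effectors.

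Among the regulators, *Klf3*, a repressor related to *Klf1*, was highest with 50.0 and 48.5, and *Zfpm1*, the GATA cofactor FOG1, followed with 45.9 and 44.5. *Tal1*, a bHLH factor of blood cells, had 23.4 and 24.4, and *Nfe2*, a subunit of the factor that binds the NF-E2 motif, 37.5 and 40.5. *Lmo2*, a LIM-domain adaptor gene, was the lowest regulator with a peak, at 3.53 and 6.28. *Klf3*, *Zfpm1* and several others of this list are also used in other cells, so that open starts there are not a mark of red cells alone. Among the effectors *Car2*, a carbonic anhydrase gene, was highest by mean with 36.4 and 37.0. Of the more erythroid-restricted genes, *Epor* (erythropoietin receptor, 30.2 and 35.4), *Slc4a1* (band 3, 30.7 and 26.9) and *Alas2* (heme synthesis, 9.51 and 12.3) had peaks in both replicates. They were picked after their values were seen, and *Car1*, *Hemgn* and *Slc25a37* of the same list had none at the outermost start. *Rhag*, a Rhesus-associated glycoprotein gene, was the lowest effector with a peak by mean, at 8.96 and 10.8.

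The 4 listed erythroid genes without a peak at the outermost start were *Gata1*, *Car1*, *Hemgn* and *Slc25a37*. *Gata1*, which encodes the leading erythroid transcription factor, had 4 shared regions inside the gene with up to 12.2 and 18.6, and 2 of its 3 annotated transcript starts had one within 1 kb. *Hemgn*, a gene of blood cell development, had 7 regions inside the gene and *Car1*, a carbonic anhydrase gene, had 2. A shared region lay at 1 of 2 transcript starts of *Hemgn* and at 0 of 3 of *Car1* and of *Slc25a37*. At *Slc25a37*, the mitochondrial iron importer mitoferrin, 0% of the 50 bp sequences at the start were unique. The lack of a peak at the outermost start is thus not a lack of peaks at these genes.

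The same reading for the other cell types of the heart gave 11 of 14 cardiomyocyte genes with a shared region and a median mean fold enrichment of 13.0, 7 of 8 endothelial genes with 10.5, and 5 of 5 epicardial genes with 9.58. Of 7 leukocyte genes 1 had a region, *Spi1* with 5.16 and 4.27, and the median was 0. *Ptprc*, *Fcgr1*, *Itgam* and *Adgre1*, which encode surface proteins of leukocytes, had no peak at the start in either replicate, although *Ptprc* had 3 shared regions inside the gene with up to 6.25 and 5.03. *Cx3cr1*, a chemokine receptor gene of this list, had no peak at its start but 17 shared regions within the annotated gene, with up to 35.9 and 32.2. *Csf1r* of this list likewise had no peak at its start but 2 shared regions inside the gene, with up to 7.06 and 8.55. Of 7 hepatocyte genes, read because the liver is an erythroid site at this stage, 2 had a shared region at the start. The higher of them was at *Apob*, an apolipoprotein gene, with 7.33 and 8.55. The other 5 (*Alb*, *Afp*, *Apoa1*, *Fgb* and *Serpina1a*, genes of secreted liver proteins) had none there, although *Apoa1* had 1 inside the gene with 9.24 and 7.79. *Actc1*, cardiac actin, was the highest cardiomyocyte gene with 25.8 and 22.1. *Nkx2-5* and *Mef2c*, both cardiac transcription factor genes, had no peak at the outermost start, and *Tbx5*, another, had one of 5.16 in replicate 1 alone. Other annotated starts of these genes were open, with a shared region at 19 of 27 annotated transcript starts of *Mef2c*, 1 of 2 of *Nkx2-5* and 2 of 3 of *Tbx5*. The VEGF receptor gene *Kdr* was the highest endothelial gene with 16.8 and 16.1, and *Pecam1*, an adhesion molecule gene, had no peak at the outermost start but a shared region at 5 of its 8 transcript starts. *Tbx18*, an epicardial transcription factor gene, was highest in its list with 24.2 and 22.4, and *Aldh1a2*, a retinoic acid synthesis gene, lowest with 7.06 and 7.04. The medians of both red cell lists and of the members were thus above those of the lists of the heart's own cells, while *Actc1* and *Tbx18* lay close to *Klf1* by mean fold enrichment. Differences between lists were not tested, and levels at different starts do not give shares of cells.

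**Figure D4:**
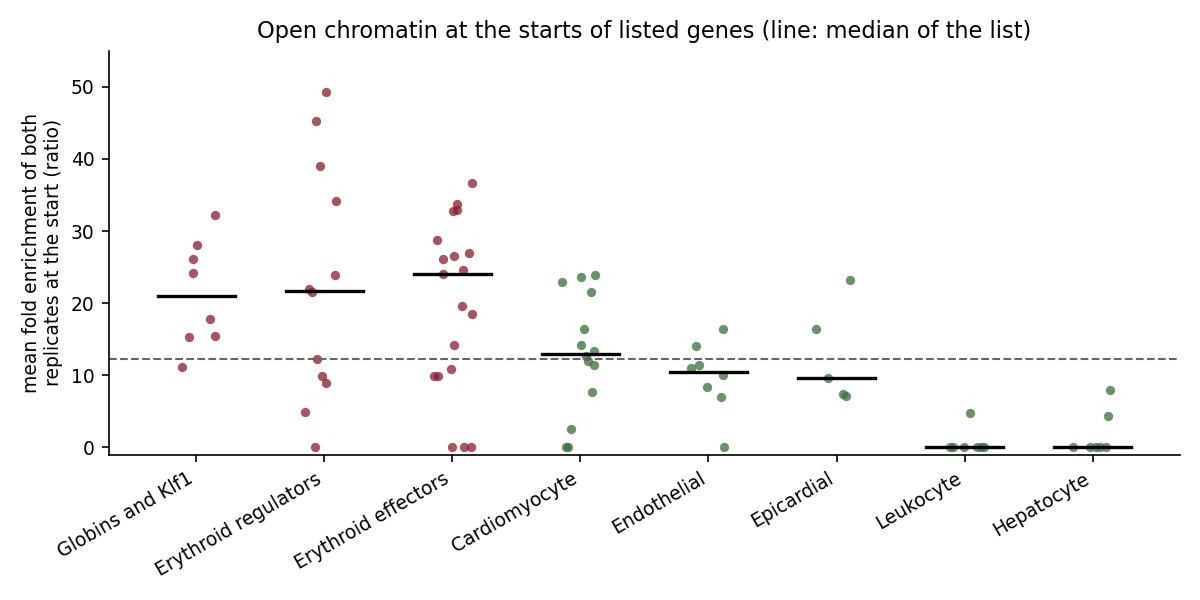
Mean fold enrichment of both replicates (ratio) at the start of each listed gene, 0 without a peak, with a line at the median of each list and a dashed line at the median of all protein-coding genes. The members and both erythroid lists have medians of 21.0, 21.7 and 24.1, the lists of cardiac cells 13.0 or less, and the leukocyte and hepatocyte lists 0.

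The ratio of the replicates was also read for these gene groups. Of the 8 members 5 were higher in replicate 2, with a median ratio of replicate 2 to replicate 1 of 1.14, and of the 27 erythroid genes with a region 18 were, with a median of 1.03. Of the 11 cardiomyocyte genes none was higher in replicate 2, with a median ratio of 0.827, and of the 7 endothelial genes 1 was, with 0.749. Over the 13928 protein-coding starts with a shared region, 43.0% were higher in replicate 2, with a median of 0.982. Of the 5 epicardial genes 2 were higher in replicate 2, with a median of 0.997, close to that of all starts. The listed heart muscle and endothelial genes with a region were thus mostly higher in replicate 1, in 2 samples of the same group. These lists are short, and differences between the gene groups were not tested. With 8 members no lean of the members can be read from this.

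Among regions with summits within 200 bp of each other, the median ratio was 1.25 over 10 regions of the alpha gene span, 1.09 over 10 of the beta gene span, 0.993 over 14 upstream of *Hba-x* and 1.15 over 8 upstream of *Hbb-y*. It was 0.855 over 22 regions of the remaining alpha interval and 1.15 over 8 of the remaining beta interval. Over all 87542 such regions it was 0.926, and over the 9742 with a mean above 20 it was 0.994. The ratio was thus not the same at all levels, and the part of level and of depth in the difference between the gene groups was not tested.

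**Figure D5:**
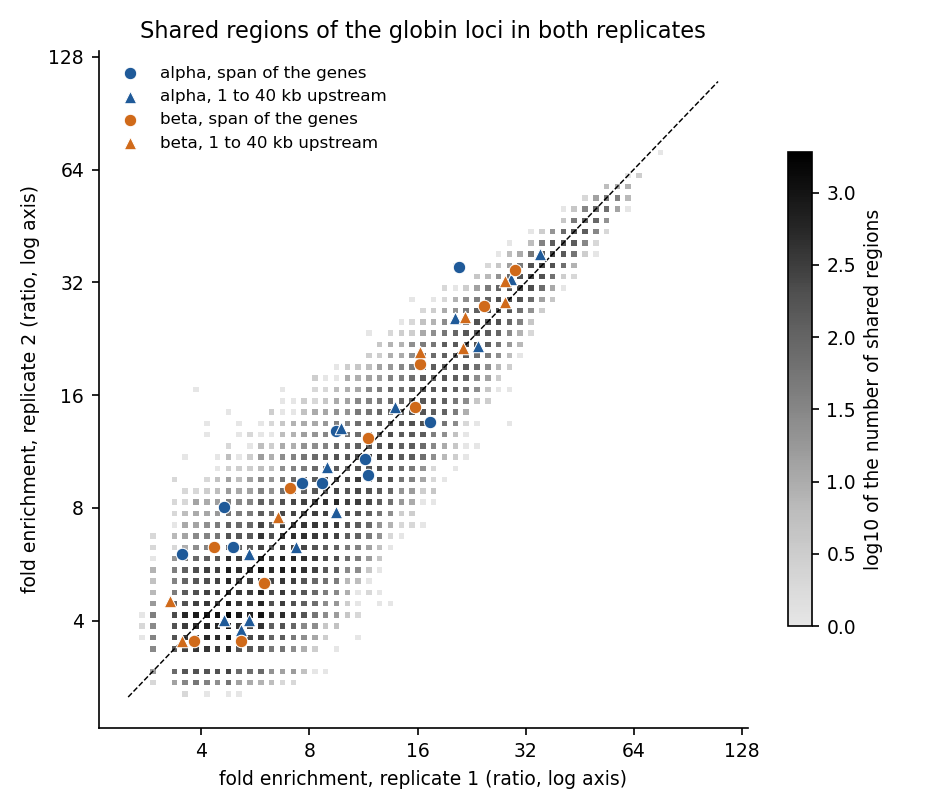
Fold enrichment of shared regions in replicate 1 and replicate 2 (ratios, log axes), for regions with summits within 200 bp of each other, with grey squares for all regions by number and a dashed line of equality. Most globin regions lie within the cloud, and *Hba-x*, at 20.9 and 35.2, stands at its upper edge.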

How the data were processed

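ATAC-seq was carried out on 2 replicates of wildtype hearts at E11.5. The authors trimmed reads with Trim Galore 0.6.6 and Cutadapt, aligned them to GRCm38/mm10 with Bowtie2 2.4.2, and used SAMtools 1.12 to discard duplicates and poorly mapped reads. Peaks were called per replicate with MACS2, against a genome-wide background. The largest p-values in the lists, 0.000476 and 0.00104, lie well below the limit the methods state. The settings behind the lists, the limit on signal included, are therefore not fully known. The lowest fold enrichment listed was 2.72 in replicate 1 and 2.51 in replicate 2. Sites in repeated sequence can be missed because poorly mapped reads were discarded. Deposited values are the fold enrichment at the summit (a ratio), the −log10 p-value and q-value of the peak caller, a score equal to 10 times the −log10 q-value, and the summit position. The deposited lists hold no read totals, so no counting interval was computed, and precision is known only from the 2 replicates, which nothing states to be separate litters.

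Shared regions were computed with pandas 2.3.3 and NumPy 2.4.6, and their number was checked with bedtools 2.31.1. On simulated lists of 6000 peaks, 4200 of 4200 overlapping pairs were found. The level at a start was the highest fold enrichment of any peak overlapping the window of 1 kb on each side, and 0 without a peak. Where a peak of replicate 2 overlapped 2 peaks of replicate 1, its value was given to both regions. Copies of 50 bp sequences were counted over both strands of GRCm38 without patches (Numba 0.67.0). Motifs were searched on both strands. Plots used Matplotlib 3.10.9.

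Named were the 8 members, the other globin genes, gene starts with a shared region in each interval, the 3 strongest regions per interval, regions of the gene spans and upstream segments, peaks within 10 kb of *Klf1*, and from each list the extremes and most genes without a peak. *Tal1*, *Nfe2*, *Epor*, *Slc4a1* and *Alas2* were named after their values were seen. Some listed genes are not reported here by name. The members and the lists were chosen with earlier results of these data known. The alternatives tried were other q-value and p-value limits, stricter overlap, each replicate alone, other windows and starts, other flanks, covered base pairs and 32 bp sequences. A q-value limit of 1e-50 was added after the data were seen.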

Additional observations from a re-analysis of the deposited data

How the results depend on the processing

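All 8 members kept a shared region at the start under a p-value of at most 0.00001, a q-value of at most 1e-10, summits within 200 bp, 2 kb on each side and every transcript start. With either replicate alone, all 8 had a peak there. The count fell to 7 where each peak of a pair had to cover 50% of the other (without *Klf1*), 7 with 0.5 kb on each side (without *Hba-a2*), 6 with summits inside the window (without *Klf1* and *Hba-a2*) and 6 with a q-value of at most 1e-50 (without *Hba-a1* and *Hba-a2*). The number of regions in the loci moved with the q-value limit and the flank. At 1e-10 the alpha interval kept 30 of 56 regions, the beta interval 18 of 30 and the alpha upstream segment 9 of 14. At 1e-50, chosen after the data were seen, these were 8, 10 and 4, and the beta upstream segment kept 5 of 8. Without flanks the intervals held 18 and 12 regions, and in base pairs the shared regions came to 39246 and 22999. With 32 bp sequences the share of unique sequences over the windows of the members was 70.0%, beside 72.4% with 50 bp. Leaving out a replicate gave 57 to 61 peaks in the alpha interval and 30 to 35 in the beta interval. No paired analysis was possible because both samples belong to 1 group and no pair of groups exists. The lists give no read counts, so a start without a peak may hold signal below the caller's limit.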
